A study of Homo sapiens with 6 samples.

Results

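The published miR-23a targets are 7 genes that earlier literature named as targets of the microRNA miR-23a, namely *PPARGC1A*, *G6PC*, *APAF1*, *XIAP*, *TOP1*, *MTSS1* and *TNFAIP3*. They are listed by gene symbol, with no cut on a value measured here, though earlier results of these data were known when they were chosen. Of the 20026 genes with a value, 7 of 7 were found, and all 7 passed the low-count filter in each of 3 comparisons. In both comparisons of miR-23a KO, *PPARGC1A* and *G6PC* passed it only through the other group, so a difference there was built into their passing.

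RNA-seq was done on HepG2, a human liver cancer cell line, in 3 groups of 2 libraries each. The KO lines were edited by CRISPR/Cas9 to delete miR-23a or miR-27a, with guide RNAs on either side of the mature sequence. Scr cells, whose genotype is given as WT, were the scramble control. The lines were grown from sorted single cells. The labels do not say whether the libraries of a group came from separate clones or cultures, so p-values measure only the spread between these libraries. Both miRNAs are cut from 1 shared transcript, and neither they nor the other miRNAs of that transcript were analysed here. Group membership therefore rests on sample titles.

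A miRNA guides a protein complex to messenger RNAs that pair with its seed, the bases near its 5′ end, and the paired message is usually translated less and degraded sooner. Loss of a miRNA is therefore generally read by whether messages with a matching site in the 3'-UTR become more abundant. In liver cells the 7 genes serve separate processes, with glucose output (*PPARGC1A* and *G6PC*), apoptosis (*APAF1* and *XIAP*), DNA topology (*TOP1*), membrane and actin shape (*MTSS1*) and inflammatory signalling (*TNFAIP3*) among them.

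The mature miRNAs are shown because the seed (bases 2 to 8, in capitals) sets which sites can pair. miR-23a-3p lies at chr19:13836595-13836615 on the minus strand and miR-27a-3p at chr19:13836447-13836467 on the same strand (RefSeq, GRCh38.p14). miR-23b-3p and miR-23c, from other loci, carry the same seed as miR-23a-3p, and the seed of miR-27a-3p is a different one.
miR-23a-3p: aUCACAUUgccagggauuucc
miR-23b-3p: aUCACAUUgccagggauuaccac
miR-23c: aUCACAUUgccagugauuaccc
miR-27a-3p: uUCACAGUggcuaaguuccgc

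Matches to these seeds were searched in 3'-UTRs (GENCODE release 29, GRCh38), taking the longest one annotated for a gene, as AATGTGA for the miR-23 seed and ACTGTGA for miR-27a-3p. All 7 targets held at least 1 miR-23a match, 14 in total. Of all 15889 3'-UTRs searched, 19.3% held one, and among 3'-UTRs of 0.8 to 1.25 times the length of each target the share ran from 13.8% for *TOP1* to 55.7% for *XIAP*. Only *APAF1* and *TNFAIP3* also held a miR-27a match, 1 each, against 16.7% of all 3'-UTRs and 11.9% (*TOP1*) to 49.2% (*XIAP*) of those of like length to each target. These matches describe the genes and are no measurement of binding. Earlier literature may have named the targets with the help of such matches. That all 7 hold a miR-23a match is therefore no independent result beside the shares given. An A follows the match, opposite the first base of the miRNA, at 10 of the 14 matches and in 6 of the 7 genes, the exception being *G6PC*.

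The following sites of 6 of the genes show how the matches lie, with the match in capitals and the bases next to it in lower case. The sites of *PPARGC1A* are at chr4:23792312-23792318 and chr4:23792266-23792272 on the minus strand, and that of *G6PC*, at chr17:42913361-42913367 on the plus strand, ends 2 bases before the annotated end of the transcript. In *APAF1* a miR-27a match at chr12:98734717-98734723 starts 15 bases before a miR-23a match at chr12:98734732-98734738, both on the plus strand. The sites shown for *XIAP* (chrX:123908198-123908204), *TOP1* (chr20:41123935-41123941) and *TNFAIP3* (chr6:137878602-137878608) are on the plus strand too.
PPARGC1A, first miR-23a site: atagccatgtactatAATGTGAtga
PPARGC1A, second miR-23a site: acagacattttcaatAATGTGAact
G6PC, miR-23a site: ctatattttagatgcAATGTGAtc
APAF1, miR-27a site: ctagtttacaggcttACTGTGAttt
APAF1, last miR-23a site: actgtgatttaagcaAATGTGAaaa
XIAP, first miR-23a site: aacctttttggtgccAATGTGAaat
TOP1, first miR-23a site: gagtgttcctttttaAATGTGAatt
TNFAIP3, miR-23a site: ctctcatggatgtaaAATGTGAaac

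**Figure D1:**
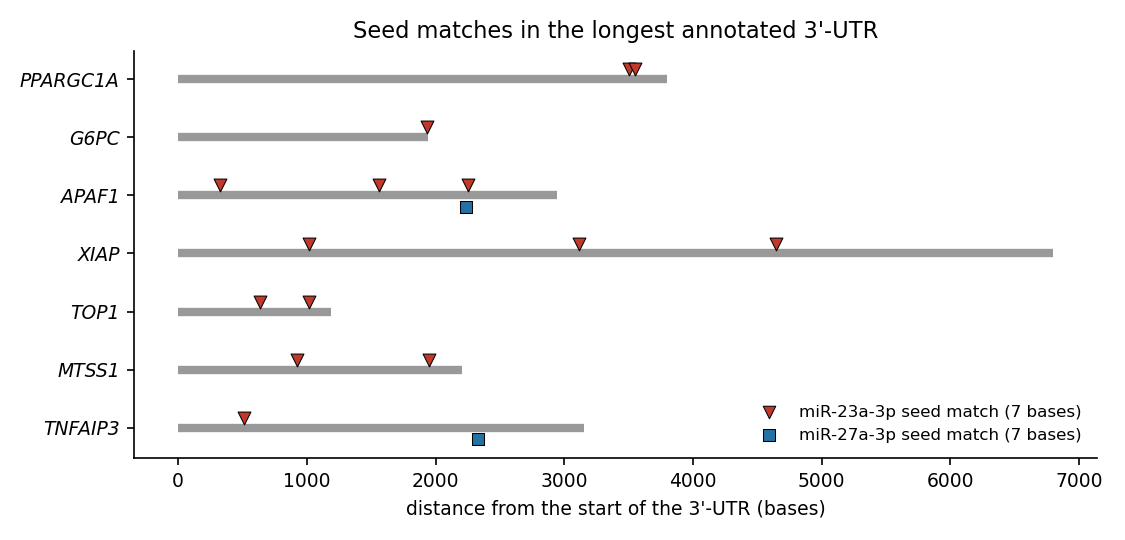
Positions of seed matches along the longest annotated 3'-UTR of each target, in bases from the start of the 3'-UTR (grey bar to scale). Triangles mark miR-23a-3p matches and squares miR-27a-3p matches, and the 3'-UTRs run from 1190 bases in *TOP1* to 6798 in *XIAP*.

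Estimated read counts summed to 14891239 and 14405250 (Scr), 16515261 and 15930779 (miR-23a KO) and 15850589 and 15947308 (miR-27a KO). The pairs differed widely in how well their libraries matched. Relative to sampling noise, the median squared distance of replicates was 12.1 for Scr, 123 for miR-23a KO and 1.81 for miR-27a KO, among genes that had 40 or more counts per pair. More than 2-fold apart were 47.7% of such genes for miR-23a KO, 6.55% for Scr and 1.29% for miR-27a KO. The miR-23a KO libraries thus stood apart from each other, and the targets' results that rest on them are given with and without either one.

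The distance between the miR-23a KO libraries moved with transcript GC content. CPM denotes counts per 1e+06 counts after TMM scaling. With genes split by GC content into 5 bins of 2570, the median log2 CPM of replicate 2 minus replicate 1 ran from 1.14 in the lowest bin to -1.16 in the highest. The same medians were 0.41 and -0.16 for Scr and 0.01 and -0.03 for miR-27a KO. All 7 targets fell in the lower 3 bins (miR-23a KO medians 1.14, 0.88 and 0.21), from 39.0% GC in *XIAP* to 49.5% in *TNFAIP3*. Their miR-23a KO libraries lay 2.23 apart in *TNFAIP3*, 1.86 in *APAF1*, 1.59 in *TOP1*, 1.41 in *XIAP*, 0.87 in *G6PC* and 0.68 in *MTSS1*, with replicate 2 the higher for each. Among the targets these distances did not follow the order of GC content, the largest being that of *TNFAIP3*, the target highest in GC. What part the distance between the miR-23a KO libraries has in the comparisons of miR-23a KO was not tested beyond the values given with it.

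**Figure D2:**
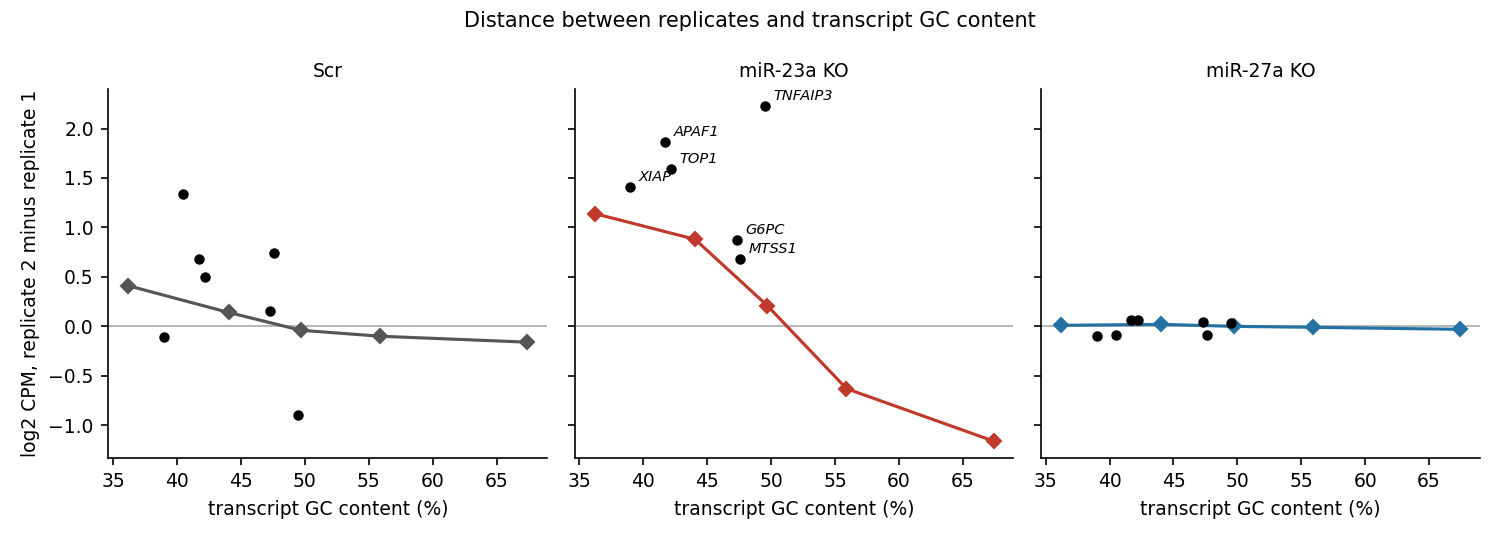
Log2 CPM of replicate 2 minus replicate 1 against transcript GC content (%) in each group. Diamonds are the medians of 5 bins of genes, drawn at the middle of each GC range, and black points are the targets (*PPARGC1A*, with 0 counts, is left out in miR-23a KO). The line falls from 1.14 to -1.16 in miR-23a KO and stays within 0.03 of 0 in miR-27a KO.

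Per kilobase of the longest coding transcript, *TOP1* and *TNFAIP3* were the most abundant targets in Scr cells, at 16.7 ± 4.09 and 13.8 ± 5.94 CPM per kb (mean ± SD, n = 2), and did not differ beyond their spread. *MTSS1* followed at 7.08 ± 2.54, with both libraries (5.28 and 8.87 CPM per kb) below those of *TNFAIP3* (18.0 and 9.62), and then *XIAP* at 1.27 ± 0.0720 CPM per kb. *APAF1* at 0.800 ± 0.268 and *G6PC* at 0.634 ± 0.0538 CPM per kb did not differ beyond their spread. The lowest level was that of *PPARGC1A*, at 0.320 ± 0.208 CPM per kb.

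Among the targets, the genes of glucose output carried the lowest counts in Scr and miR-23a KO, and the largest fold changes in both comparisons of miR-23a KO. *PPARGC1A* (gene 10891, chr4:23755041-23904089, minus strand) encodes PGC-1alpha, a transcriptional coactivator that switches on gluconeogenic and mitochondrial genes. Counts were 16 and 44 (Scr), 0 and 0 (miR-23a KO) and 162 and 153 (miR-27a KO). Both miR-23a KO libraries were below both Scr libraries and both miR-27a KO libraries above them, so no group overlapped another. Mean levels were 2.02 ± 1.32 CPM in Scr and 9.50 ± 0.432 CPM in miR-27a KO (SD, n = 2). Set against a floor of 3 counts in each miR-23a KO library, which is 0.197 CPM and covers counting error only, the mean level of miR-23a KO was at least 10.3-fold lower than in Scr (5.56-fold against Scr replicate 1 alone, the lower of its libraries) and at least 48.3-fold lower than in miR-27a KO. In bulk RNA, fewer cells that express a gene and less RNA per cell cannot be told apart.

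*G6PC* (gene 2538, chr17:42900797-42913369, plus strand) encodes the catalytic subunit of glucose-6-phosphatase, which releases glucose in the last step of gluconeogenesis. Its counts were 27 and 31 (Scr), 2 and 7 (miR-23a KO) and 24 and 25 (miR-27a KO). The miR-23a KO libraries were the lowest by far, and the miR-27a KO libraries lay just under those of Scr without overlap. Summed over libraries and scaled for depth, Scr held 6.84 times the level of miR-23a KO (exact 95% interval of the counts 3.36 to 15.7) and 1.33 times that of miR-27a KO (0.893 to 1.99). These intervals cover counting error only and not the spread between libraries, and the second includes 1, so a difference between Scr and miR-27a KO was not detectable at this depth.

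The apoptosis genes act on opposite sides of caspase activation. *APAF1* (gene 317, chr12:98645141-98735433, plus strand) forms the scaffold of the apoptosome, which activates caspase-9. It measured 4.31 and 6.98 CPM (Scr), 5.20 and 19.2 CPM (miR-23a KO) and 8.30 and 8.66 CPM (miR-27a KO). Replicate 1 of miR-23a KO lay within the Scr range and replicate 2 above all other libraries, while both miR-27a KO libraries were above Scr.

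*XIAP* (gene 331, chrX:123859724-123913979, plus strand) binds and inhibits caspases. Its level was 11.4 and 10.5 CPM (Scr), 9.86 and 26.4 CPM (miR-23a KO) and 13.3 and 12.4 CPM (miR-27a KO). Replicate 1 of miR-23a KO was thus the lowest of the 6 libraries and replicate 2 the highest, and the miR-27a KO libraries lay just above those of Scr. *XIAP* has 3 annotated processed pseudogenes, and how reads shared with them were counted is not given in the sources used here.

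*TOP1* (gene 7150, chr20:41028818-41124487, plus strand) encodes DNA topoisomerase I, which relieves supercoiling ahead of replication and transcription. It measured 51.7 and 73.3 CPM (Scr), 46.2 and 139 CPM (miR-23a KO) and 92.1 and 96.3 CPM (miR-27a KO). *MTSS1* (gene 9788) encodes an I-BAR protein that bends the plasma membrane and binds actin, and was first described as missing in metastatic cells. Its level was 26.1 and 43.9 CPM (Scr), 22.1 and 35.4 CPM (miR-23a KO) and 60.9 and 57.1 CPM (miR-27a KO). For *TOP1* the miR-23a KO libraries enclosed all others, whereas for *MTSS1* they overlapped Scr and lay under both miR-27a KO libraries.

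*TNFAIP3* (gene 7128, chr6:137867188-137883312, plus strand) encodes A20, a ubiquitin-editing enzyme that is induced by NF-kappaB and limits its activity. It measured 85.3 and 45.5 CPM (Scr), 28.6 and 135 CPM (miR-23a KO) and 92.9 and 94.7 CPM (miR-27a KO). The lowest and the highest library were both miR-23a KO, and both miR-27a KO libraries lay above Scr. It was the only target besides *XIAP* in which replicate 1 of Scr exceeded replicate 2.

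**Figure D3:**
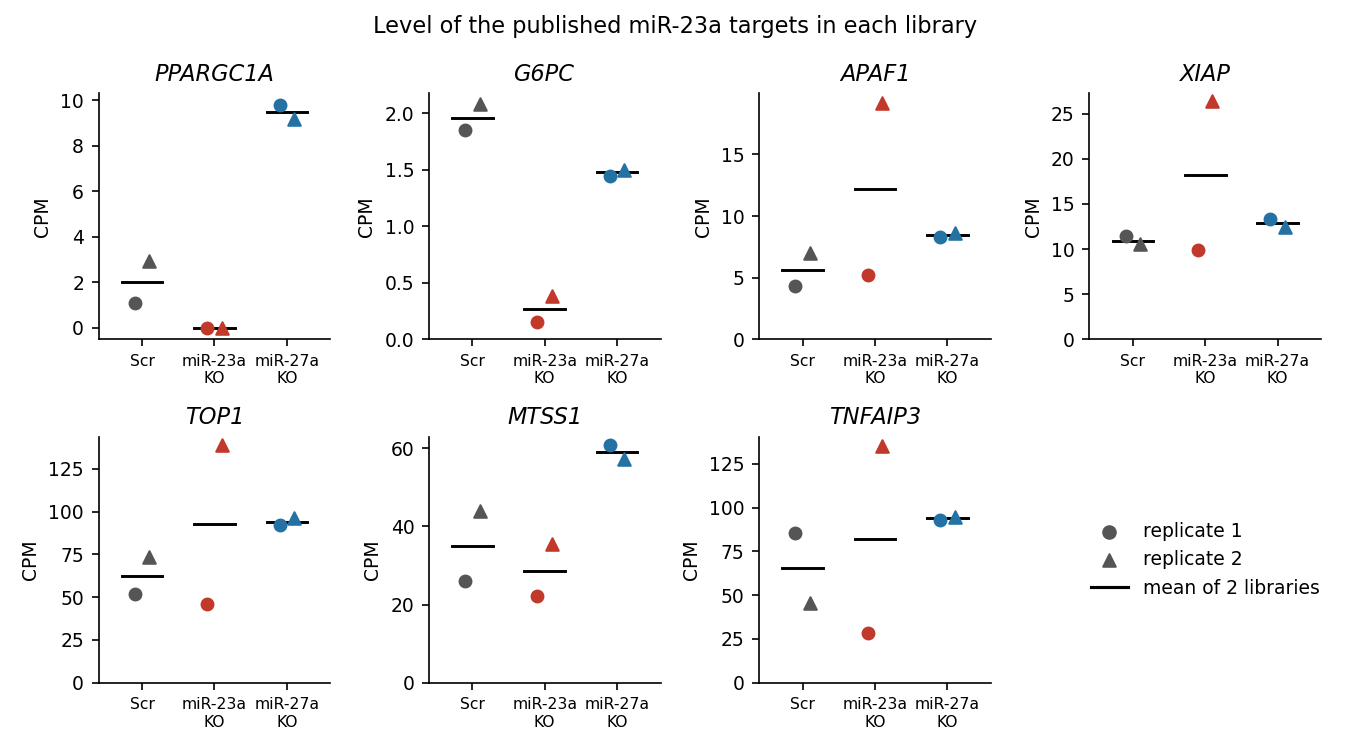
CPM of each target in the 6 libraries, with circles for replicate 1, triangles for replicate 2 and a line at the mean of the 2 libraries. The miR-23a KO libraries are at 0 and 0 in *PPARGC1A* and far apart in *TNFAIP3* (28.6 and 135 CPM), and the miR-27a KO libraries nearly coincide.

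The comparison of miR-23a KO with Scr shows the published targets after editing of the miR-23a locus. Only the 2 glucose output genes were separated from Scr in both libraries, and both were lower. Both passed the low-count filter only through Scr. A difference was thus built into their passing and into the counts of targets that rest on them. *APAF1*, *XIAP*, *TOP1* and *TNFAIP3* had higher means in miR-23a KO, with replicate 2 above Scr and replicate 1 not, and *MTSS1* a lower one. With the study's thresholds, a change of more than 1.5-fold and an adjusted p under 0.001, 0 of 7 targets were called, as were 0% of the 13786 genes tested, and at an adjusted p under 0.05 the counts were again 0 of 7 and 0% (edgeR). By unadjusted p under 0.05, 2 targets and 2.41% of all genes passed. DESeq2 called 1 target at 0.05, *PPARGC1A*, beside 0.457% of genes, and limma called 0. Both libraries were lower than Scr without overlap for 2 of 7 targets, against 12.4% of all genes, and higher for 0 of 7, against 10.4%.

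Fitted log2 fold changes against Scr were -2.75 (standard error 0.88) in *G6PC*, 1.18 (0.75) in *APAF1*, 0.79 (0.63) in *XIAP*, 0.63 (0.60) in *TOP1*, -0.24 (0.52) in *MTSS1* and 0.39 (0.73) in *TNFAIP3*, each with an adjusted p of 1 (edgeR). *PPARGC1A* had an unadjusted p of 0.00148 and an adjusted p of 0.46 (edgeR). Except for *G6PC* and *PPARGC1A*, these differences lay within the spread of the libraries. The median log2 fold change of the 7 targets was 0.39, also with *PPARGC1A* at its bound, beside 0.16 over all genes tested. It was 0.13 beside 0.06 with GC content and length corrected, and 0.03 with a replicate block, beside 0.07, or with limma, beside 0.06. Over 1.5-fold in either direction were 5 of 7 targets and 28.3% of all genes.

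Most of those signs depended on 1 library. Without miR-23a KO replicate 2, 0 of 7 targets were higher than Scr and the median of the targets was -0.69, beside -0.08 for all genes. The log2 fold changes were then -0.14 in *APAF1*, -0.17 in *XIAP*, -0.46 in *TOP1* and -1.22 in *TNFAIP3*, and 3 targets were called at an adjusted p under 0.05, all lower: *PPARGC1A*, *G6PC* and *TNFAIP3* (adjusted p 0.0207, 0.0451 and 0.0378, edgeR), beside 18.6% of all genes. Without replicate 1 instead, 5 of 7 were higher, the median was 1.04 beside -0.05 for all genes, and 1 target was called, *TOP1* with 1.16 (adjusted p 0.0474, edgeR), beside 4.12% of genes. With a correction for GC content and length, *XIAP* moved from 0.79 to 0.13, *TOP1* from 0.63 to 0.26 and *APAF1* from 1.18 to 0.79. *TNFAIP3* stood at 0.39 before and 0.42 after the correction, and *G6PC* was at -2.71 after it. *MTSS1* changed its sign without miR-23a KO replicate 1 (0.02) or without Scr replicate 2 (0.18). *PPARGC1A* and *G6PC* were lower than Scr under each of these settings. Both were apart from Scr with all libraries, so leaving out a library is hardly a check of their stability. *PPARGC1A* was called by DESeq2 (adjusted p 0.0255, with 0.00732 to 1 over all settings with 4 or more libraries).

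**Figure D4:**
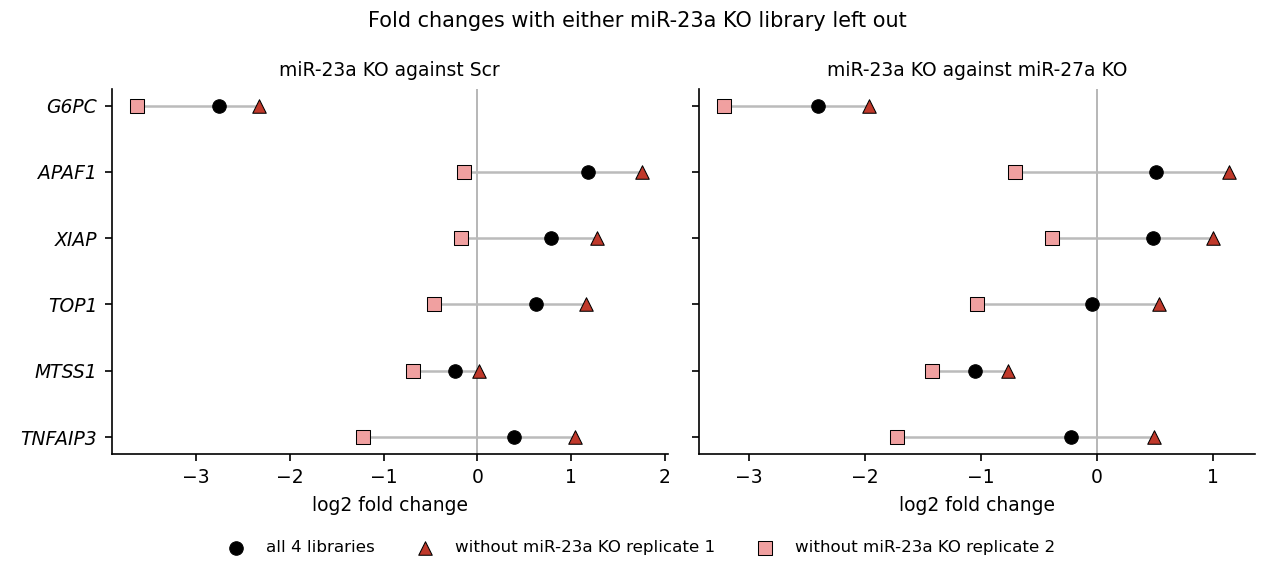
Log2 fold change of 6 targets in both comparisons of miR-23a KO, with all 4 libraries (circles), without miR-23a KO replicate 1 (triangles) or without replicate 2 (squares). Against Scr, *APAF1*, *XIAP*, *TOP1* and *TNFAIP3* cross 0 between the settings (*TNFAIP3* from 1.04 to -1.22). *G6PC*, whose libraries were already apart from those of Scr, stays between -3.63 and -2.33.

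The comparison of miR-27a KO with Scr follows the same genes after editing of a neighbouring miRNA with another seed. *PPARGC1A* rose 4.62-fold over Scr (log2 fold change 2.21, standard error 0.46, adjusted p 0.0374, edgeR) and was the 1 target of 7 called at an adjusted p under 0.05, beside 10.3% of the 13820 genes tested. At the thresholds of the study 0 of 7 were called, beside 0.0289% of genes. By unadjusted p under 0.05, 3 of 7 targets and 32.2% of genes passed, and at the study's thresholds DESeq2 called 1 target, *PPARGC1A*, beside 6.46% of genes, and limma called 0. The rise of *PPARGC1A*, which was higher in 2 of 2 libraries, lost its call without either miR-27a KO library (adjusted p 0.0927 and 0.101, edgeR), with no low-count filter (0.0665) and in a fit of all 6 libraries (0.347). Over the settings with 4 or more libraries its adjusted p ran from 0.000352 to 0.347.

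*APAF1*, *XIAP*, *TOP1*, *MTSS1* and *TNFAIP3* were also above Scr in both libraries, so that 6 of 7 targets were higher without overlap, beside 33.4% of all genes, and 1 of 7, *G6PC*, lower, beside 31.0%. None of the other 6 passed the test in the main edgeR fit, and DESeq2 also called *MTSS1* (adjusted p 0.0261). With a replicate block edgeR called *TOP1* and *MTSS1* as well (adjusted p 0.0191 and 0.0253), beside 12.3% of all genes. With GC content and length corrected on top of the block, *MTSS1* was called (adjusted p 0.0312, edgeR) and *TOP1* was not (0.0672). Log2 fold changes were 0.74 (standard error 0.24, adjusted p 0.104) in *MTSS1*, 0.57 (0.17, 0.0845) in *TOP1*, 0.57 (0.29, 0.239) in *APAF1*, 0.50 (0.29, 0.292) in *TNFAIP3*, 0.22 (0.17, 0.428) in *XIAP* and -0.43 (0.36, 0.457) in *G6PC* (edgeR). The median over the 7 targets was 0.57, beside 0.01 for all genes (0.39 beside 0.02 after the correction for GC content and length). The values of *APAF1* and *TNFAIP3*, which hold a miR-27a match, lay within the range of the others. With GC content and length corrected, *XIAP* stood at -0.02.

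Which Scr library was used mattered for these values. Without Scr replicate 2, in which *TNFAIP3* was low and *PPARGC1A*, *APAF1*, *TOP1* and *MTSS1* were high, 4 targets were called at an adjusted p under 0.05 (*PPARGC1A*, *APAF1*, *TOP1* and *MTSS1*, with log2 fold changes of 3.09, 0.95, 0.84 and 1.15), 3 of them, all but *APAF1*, also under 0.001. Of all genes 26.0% were then called under 0.05 and 11.1% under 0.001, so that calls became more frequent far beyond the targets. Without Scr replicate 1 there were 2, *PPARGC1A* with 1.68 and *TNFAIP3* with 1.04 (adjusted p 0.00117 and 4.62e-05, edgeR), the latter also under 0.001, beside 2270 of all 14208 genes under 0.05 and 968 (6.81%) under 0.001. Other values became smaller, with *TNFAIP3* at 0.12 without Scr replicate 2 and *APAF1*, *TOP1* and *MTSS1* at 0.27, 0.36 and 0.42 without replicate 1. The 6 targets higher than Scr without overlap stayed higher whichever of the 4 libraries was left out. Groups that do not overlap can come to overlap by losing a library only through the new scaling of those kept. This is therefore hardly a check of stability.

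**Figure D5:**
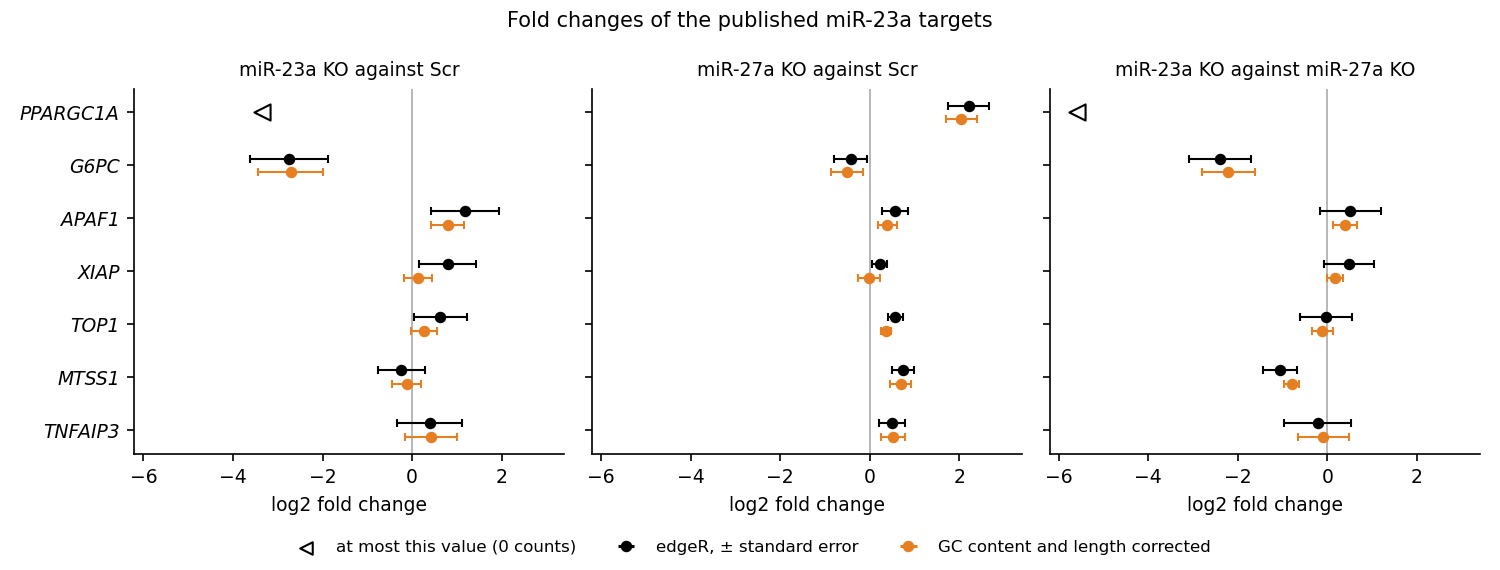
Log2 fold change of each target in the 3 comparisons, with standard errors, from edgeR (black) and after correction for GC content and length (orange). Open triangles mark *PPARGC1A* where miR-23a KO had 0 counts, as an upper limit (-3.36 and -5.59), and in miR-27a KO against Scr its value is 2.21.

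The KO groups were compared directly, because both comparisons with Scr use the same Scr libraries. *PPARGC1A*, *G6PC* and *MTSS1* were lower in both miR-23a KO libraries than in both miR-27a KO libraries, 3 of 7 targets beside 21.4% of the 13841 genes tested, and 0 of 7 were higher, beside 18.2%. *PPARGC1A* and *G6PC* passed the low-count filter only through miR-27a KO, so a difference was built into their passing. At an adjusted p under 0.001 or under 0.05, 0 of 7 targets and 0% of genes were called (edgeR). By unadjusted p under 0.05, 3 of 7 and 8.72% of genes passed, and DESeq2 called 1 target under either threshold, *PPARGC1A*, beside 1.71% and 3.45% of genes, as limma did at 0.05 on log2(CPM + 1), beside 0.246%, but not on log2(CPM + 0.1). *PPARGC1A* had an adjusted p of 0.099 in edgeR, which ran from 2.84e-09 to 0.189 over the settings with 4 or more libraries. It stayed lower in miR-23a KO whichever single library was left out. Its groups were apart with all libraries, so this is hardly a check of stability.

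For *G6PC* the log2 fold change between the KO groups was -2.40 (standard error 0.69, adjusted p 0.381, edgeR), and its summed counts were 5.14 times higher in miR-27a KO (exact 95% interval 2.50 to 11.9). That of *MTSS1* was -1.05 (standard error 0.38, adjusted p 0.527, edgeR), and the other 4 targets lay between -0.22 and 0.51, each nearer to 0 than its standard error. Without miR-23a KO replicate 2, *G6PC* stood at -3.21 and *MTSS1* at -1.42, and without replicate 1 they stood at -1.96 and -0.77. The median of the 7 was -0.22, also with *PPARGC1A* at its bound, beside 0.11 for all genes. It was -0.61 beside 0.02 with a replicate block, -1.42 beside -0.08 without miR-23a KO replicate 2 and 0.49 beside 0.01 without replicate 1, so its sign rested on 1 library. Without miR-23a KO replicate 2 all 7 targets were lower than in miR-27a KO (*APAF1* -0.71, *XIAP* -0.39, *TOP1* -1.03, *TNFAIP3* -1.72) and 6 were called at an adjusted p under 0.05, all but *XIAP*, beside 51.4% of all genes. Without replicate 1, *APAF1* (1.14), *XIAP* (1.00), *TOP1* (0.53) and *TNFAIP3* (0.49) were higher and the other 3 lower, and 5 were called, all but *TOP1* and *TNFAIP3*, which stayed under 1.5-fold, beside 34.2% of all genes.

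Genes that work with the targets were followed as 5 lists of 83 genes in all. In miR-23a KO against Scr edgeR called 0 of them, 1 of 80 tested (*TOPORS*) had an unadjusted p under 0.05, beside 2.41% of all genes, and DESeq2 and limma called 0. In miR-27a KO against Scr 8 of the 80 tested were called at an adjusted p under 0.05, beside 10.3% of all genes, so the lists held no more calls than genes at large. Of these 8, *PCK1*, *PPARGC1B*, *BIRC3* and *PMAIP1* passed the low-count filter only through the group where they were higher, so a difference was built into their passing, and with no filter *PCK1* alone of the 4 kept its call (adjusted p 0.014, edgeR, against 0.059, 0.0656 and 0.0745 in *PPARGC1B*, *BIRC3* and *PMAIP1*). In the fit of all 6 libraries each of the 8 but *PCK1* lost its call. Of the 16 genes of gluconeogenesis and PGC-1alpha partners, 15 were tested against Scr, with 0 called in miR-23a KO (median log2 fold change 0.36, beside 0.16 for all genes) and 2 in miR-27a KO, both lower (median 0.03, beside 0.01). These were *PCK1*, the cytosolic enzyme that commits oxaloacetate to glucose synthesis, and *PPARGC1B*, the paralogue of *PPARGC1A*. *PCK1* had counts of 70 and 57 (Scr), 42 and 112 (miR-23a KO) and 1 and 1 (miR-27a KO), so that Scr held 71.3 times its level in miR-27a KO (exact 95% interval 19.3 to 595, counting error only). Its fall was called in edgeR (adjusted p 0.00701) and in each of 14 other settings. *PPARGC1B* had counts of 72 and 46 (Scr), 34 and 134 (miR-23a KO) and 13 and 5 (miR-27a KO). It stood at -2.88 on the log2 scale in miR-27a KO (standard error 0.56, adjusted p 0.0333, edgeR), a call lost in 3 of 14 other settings, among them without miR-27a KO replicate 2 (-2.34, adjusted p 0.168, edgeR). The miR-23a KO libraries of both genes enclosed those of Scr. Without passing the test, 2 genes of the list were above Scr in both miR-23a KO libraries, beside 10.4% of all genes, and 1 below, beside 12.4%. The largest of these 3 fold changes were those of *TFAM*, a mitochondrial transcription factor (1.12, standard error 0.55), and *PC*, pyruvate carboxylase (-0.38, standard error 0.43). Without miR-23a KO replicate 2 these stood at 0.61 and -0.21, and without replicate 1 at 1.41 and -0.65.

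Around *APAF1* and *XIAP*, 21 of 22 genes of the apoptosome, caspases, IAPs and BCL2 family were tested against Scr. In miR-23a KO 0 were called (median 0.31, beside 0.16) and in miR-27a KO 1 was called higher and 1 lower (median -0.02, beside 0.01). *BIRC3*, an inhibitor of apoptosis related to *XIAP*, had 10 and 9 counts in Scr and 38 and 37 in miR-27a KO, where it stood at 1.78 on the log2 scale (standard error 0.40, adjusted p 0.0441, edgeR), and lost its call in 8 of 14 other settings, among them DESeq2 (adjusted p 0.113), a replicate block (0.0571), the correction for GC content and length (0.0745) and without miR-27a KO replicate 1 or 2 (0.361 and 0.35). *PMAIP1*, which encodes the pro-apoptotic BH3 protein NOXA, had counts of 12 and 10 (Scr), 25 and 52 (miR-23a KO) and 0 and 0 (miR-27a KO). In miR-27a KO it was at least 4.12-fold lower than in Scr and at least 13.2-fold lower than in miR-23a KO, by the floor of 3 counts per library (adjusted p 0.0332 and 0.149, edgeR), and the call against Scr was lost in 5 of 12 other settings, among them without miR-27a KO replicate 1 or 2 (0.165 and 0.184).

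Of 10 topoisomerase genes and their repair partners, edgeR called 1, *TOPORS*, a ubiquitin and SUMO ligase that binds topoisomerase I. Its counts were 30 and 41 (Scr), 76 and 175 (miR-23a KO) and 92 and 103 (miR-27a KO). It rose in miR-27a KO by 1.27 (standard error 0.29, adjusted p 0.0471, edgeR), a call lost in 7 of 14 other settings, among them DESeq2 (0.0513) and without miR-27a KO replicate 1 or 2 (0.281 and 0.386), and stood at 1.73 (standard error 0.67, adjusted p 1, edgeR) in miR-23a KO. The 1 gene of the list that DESeq2 called in miR-27a KO was another, *TOP2A*, a type II topoisomerase (0.63, adjusted p 0.0358, DESeq2). The medians of the list were 0.21 in miR-23a KO, beside 0.16 for all genes, and 0.43 in miR-27a KO, beside 0.01, with 7 of 10 genes above Scr in both miR-27a KO libraries, beside 33.4% of all genes. In both miR-23a KO libraries 2 genes of the list were above Scr, beside 10.4% of all genes, and 1 was below, beside 12.4%. The lower one was *TOP1MT*, the mitochondrial topoisomerase (-0.44, standard error 0.44).

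Among 12 genes of I-BAR proteins and branched actin, the relative of *MTSS1* called *MTSS1L* fell in miR-27a KO by 0.88 on the log2 scale (standard error 0.09, adjusted p 0.00928, edgeR), from 7873 and 8486 counts to 5305 and 4794. It was the 1 gene of the list called, and its call was lost in 2 of 14 other settings, 1 of them without miR-27a KO replicate 2 (-0.79, adjusted p 0.106, edgeR). *MTSS1* itself was higher in those libraries. The list's medians were -0.24 in miR-23a KO, beside 0.16 for all genes, and 0.06 in miR-27a KO, beside 0.01. Both miR-23a KO libraries were below Scr for *BAIAP2L1* (-0.53, standard error 0.44) and *CTTN*, cortactin (-0.50, standard error 0.49, and -0.18 without miR-23a KO replicate 1), the largest of 4 such genes among the 12, beside 12.4% of all genes. Above Scr in both were 0 of the 12, beside 10.4% of all genes.

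Around *TNFAIP3*, 22 of 23 A20 partners and NF-kappaB feedback genes were tested against Scr, with 0 called in miR-23a KO (median 0.27, beside 0.16) and 2 in miR-27a KO (median 0.12, beside 0.01). *NFKB1*, which encodes an NF-kappaB subunit, rose in miR-27a KO by 0.78 (standard error 0.09, adjusted p 0.0111, edgeR). *NFKBIB*, which encodes an inhibitor of NF-kappaB, fell by 0.69 on the log2 scale (standard error 0.11, adjusted p 0.0197, edgeR). Without miR-27a KO replicate 1 or 2 both calls were lost (*NFKB1* 0.0887 and 0.103, *NFKBIB* 0.17 and 0.256, adjusted p from edgeR), and that of *NFKBIB* also with GC content and length corrected (-0.40, adjusted p 0.051, edgeR). Counted as above Scr in both miR-23a KO libraries were 3 of the 22 genes, beside 10.4% of all genes. The largest were *NFKBIE*, another inhibitor (1.14, standard error 0.58), and *TRAF2*, an adaptor of TNF receptors (0.52, standard error 0.49). Without miR-23a KO replicate 1, *NFKBIE* stood at 0.11 and *TRAF2* at -0.02. In that setting *TRAF2* was no higher than Scr, so its value rested on replicate 1 and its separation from Scr is not secure. Counted as below Scr in both libraries was 1 gene, *IKBKB* (-0.47), beside 12.4%.

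Between the KO groups edgeR called 0 genes of these 5 lists. At an unadjusted p under 0.05 there were 3 of 82, beside 8.72% of all genes, *PCK1*, *PPARGC1B* and *PMAIP1*, which DESeq2 also called, beside 3.45% of all genes, and limma called 0. These 3 and *TRAF1* passed the filter only through miR-23a KO. The medians were 0.31 for gluconeogenesis, 0.19 for apoptosis, 0.01 for topoisomerases, -0.34 for I-BAR proteins and 0.11 for A20 partners, beside 0.11 for all genes. *PCK1* was 81.5 times higher in miR-23a KO (exact 95% interval 22.2 to 679, counting error only). The other genes named, whose groups were apart, were *PPARGC1B* (3.16, standard error 0.83), *BAK1*, a pore-forming BCL2 family protein (1.30, 0.65), *TRAF1* (1.13, 0.62), *MTSS1L* (1.12, 0.57), *NFKB1* (-1.02, 0.45), *RMI2* (-0.84, 0.33), *BAIAP2L1* (-0.77, 0.31) and *TOP1MT* (-0.45, 0.31). Without miR-23a KO replicate 1, *BAK1* stood at 0.12 and *MTSS1L* at 0.22, and without replicate 2 at 1.94 and 1.66, so the values of both rested on replicate 1. In the same settings *NFKB1* was at -0.61 and -1.62 and *PPARGC1B* at 3.71 and 2.24.

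The genes most like each target over the 6 libraries were found by the root mean square difference of centred log2 CPM from 13410 others. *PPARGC1A* was nearest to *ESRP1* and *MYO10*, with no distance given because its 0 counts in miR-23a KO leave that to the prior count. *ESRP1* had counts of 26 and 40 (Scr), 1 and 1 (miR-23a KO) and 299 and 302 (miR-27a KO), the same order as *PPARGC1A*. *G6PC* was nearest to *ZSWIM6* (0.18) and *UGT1A6* (0.28), the latter uncertain because the genes of its locus share exons. The other targets had closer neighbours, *PRKD3* and *RFC1* for *APAF1* (0.06 and 0.07), *VPS41* and *CALD1* for *TOP1* (both 0.06), *GIPC2* and *SEH1L* for *MTSS1* (0.07 and 0.11), *NSUN3* and *TRMT11* for *XIAP* (both 0.09) and *NES* and *IGF2BP2-AS1* for *TNFAIP3* (0.10 and 0.12). These likenesses include the distance between the miR-23a KO replicates and say nothing of shared control.

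HepG2 identity was checked by marker genes. All 11 liver cancer cell markers were present, with summed levels of 29700 and 37100 CPM (Scr), 32000 and 33600 CPM (miR-23a KO) and 25900 and 25800 CPM (miR-27a KO), and the most abundant by mean was *ALB* in Scr and miR-23a KO and *SERPINA1* in miR-27a KO. In miR-27a KO 1 of the 11 was called higher and 3 lower, beside 10.3% of all genes called. Lower than Scr were *AFP* (-4.11), *ALB* (-2.59) and *FGB* (-2.05), and higher was *TF* (1.25), by log2 fold changes with adjusted p of 0.00262, 0.00538, 0.0212 and 0.0212 (edgeR), which in part offset each other in the sum. Of 5 leukocyte markers, *LYZ* held nearly all of a summed level of 377 and 411 CPM (Scr), 132 and 189 CPM (miR-23a KO) and 1500 and 1560 CPM (miR-27a KO), while *PTPRC* had 1 or 2 counts in every library. The 3 fibroblast markers with a value summed to between 5.11 and 30.1 CPM, nearly all *PDGFRB*, with *COL1A1* and *PDGFRA* at 2 counts or fewer. The 3 endothelial markers with a value, led by *PECAM1*, summed to at most 6.97 CPM. In miR-27a KO *LYZ* was called higher and *PDGFRB* lower, and in the other comparisons edgeR and limma called 0 markers. In miR-23a KO against Scr, 3 of 17 had an unadjusted p under 0.05, beside 2.41% of all genes, and DESeq2 called 0. Between the KO groups these were 6 of 16, beside 8.72%, and DESeq2 called 5, beside 3.45%. What part the levels of these markers have in the results was not tested.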

How the data were processed

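RNA-seq of 6 HepG2 libraries was analysed in 3 groups of 2. The authors deposited expected counts per gene under column names that say FPKM. They were read as counts because libraries sum to read numbers (14405250 to 16515261) and many values are exactly whole (tolerance 0), namely 34.5% to 40.8% of those above 0 and 42.6% to 51.0% with zeros included. They were rounded. The library kit is strand-specific by the study's methods, though the labels name another TruSeq kit. The submitters' processing notes name HISAT, StringTie, Cufflinks and GATK. Versions, genome build and counting of strand and shared reads are not given in the sources used here. *APAF1* and *MTSS1* overlap a coding gene, and *PPARGC1A*, *XIAP*, *TOP1* and *TNFAIP3* antisense genes, on the opposite strand.

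Each pair of groups was fitted with edgeR 4.0.16 in R 4.3.3 (filterByExpr, TMM, glmQLFit, glmQLFTest), with Benjamini-Hochberg adjustment over all genes tested. Genes were called above 1.5-fold, with adjusted p under 0.001 (the study's thresholds) or under 0.05. Log2 CPM used a prior count of 2. Intervals are exact binomial intervals of counts, at 95%. Alternatives were median-ratio size factors, DESeq2 1.42.0, limma 3.58.1 on log2(CPM + 1) or log2(CPM + 0.1), no filter, 1 fit of all libraries, a replicate block, loess correction for GC content and length (span 0.5, degree 2) and leaving out each library. Chosen after seeing the data were plain library totals, leaving out libraries for overlap counts, and running the alternatives on named list genes. GENCODE release 29 matched 17913 of 20026 genes (89.4%). The workflow was tested on simulated data.

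The lists, too, were chosen with earlier results known. Named were all targets, and from each list called genes (at 0.05, up to 4 by size) or, with none, up to 2 whose groups were apart, with 2 nearest genes per target. A gene that this rule names is not reported here, though the counts over lists and settings include it. Markers were checked as 11 liver, 8 fibroblast, 5 leukocyte and 4 endothelial genes. *COL1A2*, *COL3A1*, *DCN*, *LUM*, *THY1* and *KDR* were not analysed here.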

Additional observations from a re-analysis of the deposited data

Results flagged for a closer look

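*PPARGC1A* lay on opposite sides of Scr in the KO groups, which is why it is listed. Both miR-23a KO libraries, at 0 and 0 counts, were below the Scr libraries, at 16 and 44, and both miR-27a KO libraries, at 162 and 153, were above. The direct test of miR-23a KO against miR-27a KO gave an adjusted p of 0.099 (edgeR), which misses 0.05, and it ran from 2.84e-09 to 0.189 over the other settings with 4 or more libraries. Groups of 2 libraries are too small to look for single libraries that stand apart.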

How the results depend on the processing

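Of 294 recomputed fold changes of the 7 targets, 244 kept their direction and their side of an adjusted p of 0.05, 34 passed it newly, 4 no longer passed it, and the others turned (2 under other settings, 10 with 1 library left out). Of 390 for genes named from the lists, 328 kept direction and call, 28 were called newly, 33 lost their call and 1 turned (*TRAF2* in miR-23a KO against Scr, -0.02 to 0.87 with 1 library left out). The cause was not tested. With 1 library left out, the lone library was assumed to vary like the other group.

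In miR-23a KO against Scr, 1 target was called under 0.05 by DESeq2 and 1 with a replicate block, and 0 to 3 with 1 library left out (beside 0.457%, 0.501% and 0.0280% to 18.6% of all genes). Leaving out 1 library gave -0.14 to 1.76 for *APAF1*, -0.17 to 1.28 for *XIAP*, -0.46 to 1.16 for *TOP1*, -0.69 to 0.18 for *MTSS1* and -1.22 to 1.04 for *TNFAIP3*. The median of all genes was 0.16 with TMM and 0.06 with library totals.

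In miR-27a KO against Scr, DESeq2 called 1 target under 0.001 and 2 under 0.05, beside 6.46% and 11.7% of all genes. Under 0.05, 0 were called with no filter (beside 4.62%), 0 in a fit of all 6 libraries (0.452%), 3 with a replicate block (12.3%) and 2 with that block and a correction for GC content and length (1661 genes). With 1 library left out, 0 to 3 were called under 0.001 and 0 to 4 under 0.05, beside 0.238% to 11.1% and 2.34% to 26.0% of all genes. Fold changes then were 1.68 to 3.09 for *PPARGC1A*, 0.27 to 0.95 for *APAF1*, 0.36 to 0.84 for *TOP1*, 0.42 to 1.15 for *MTSS1* and 0.12 to 1.04 for *TNFAIP3*. *XIAP* stood at -0.02 with the correction and -0.00 with the block as well.

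In miR-23a KO against miR-27a KO, 1 target was called under 0.001 by DESeq2 (beside 1.71% of all genes), with the block (1.42%), and with block and correction (2.40%). Under 0.05, 1 was called by each of these (3.45%, 2.89% and 6.80%), in the fit of all 6 libraries (1.54%), with the correction (2.10%), and by limma on log2(CPM + 1) (0.246%). With 1 library left out, 1 to 4 were called under 0.001 and 1 to 6 under 0.05 (beside 0.118% to 37.9% of all genes, and 72 to 7303 genes), and fold changes were -0.71 to 1.14 for *APAF1*, -0.39 to 1.00 for *XIAP*, -1.03 to 0.53 for *TOP1* and -1.72 to 0.49 for *TNFAIP3*.

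Replicate numbers are not known to pair libraries. With 2 libraries per group and a wide miR-23a KO spread, missed calls there do not show that levels were equal, and low counts limit *G6PC* and *PPARGC1A*.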
